A study of Homo sapiens with 9 samples.

Results

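CD44, CD24, EPCAM, PROM1, ALDH1A1, ALDH1A3, SOX2, SOX9, CXCR4 and KLF4 are widely used as markers of pancreatic cancer stem cells. They were taken by name, from a fixed list with no threshold on any value, and are 10 of the 42717 genes in the count table. This list and the further gene lists below were chosen with earlier results of these data known. Their shares of called genes, set beside those of all genes, are therefore descriptions and not tests. RNA was sequenced from 3 sublines of SUIT-2, a human pancreatic adenocarcinoma line, with 3 libraries from each of S2-007, S2-020 and S2-028. All were untreated cells grown in DMEM with 10% serum, and each subline is a single established line, so a difference here is one between these 3 lines and not between classes of tumor. In the study, S2-007 carries the serpin maspin in nucleus and cytoplasm, S2-028 carries it mainly in the cytoplasm, and S2-020 has little of it. The labels do not say whether the libraries of a line came from separate cultures, so p-values measure the spread between these libraries, which may be technical.

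A cancer stem cell is defined by what it does, which is to found a new tumor, and in pancreatic cancer such cells have been enriched by sorting on surface proteins or on aldehyde dehydrogenase activity. CD44, CD24, EPCAM, PROM1 and CXCR4 encode surface proteins used in these sorts, ALDH1A1 and ALDH1A3 encode enzymes behind the dehydrogenase activity, and SOX2, SOX9 and KLF4 encode transcription factors of stem and progenitor cells. The sorts rest on protein at the surface of single cells, whereas RNA from a whole culture was measured here, so a lower level cannot be told apart between fewer expressing cells and less RNA per cell.

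CXCR4, KLF4, SOX2 and PROM1 were the members called higher in both S2-020 and S2-028 than in S2-007 (CD24 was called lower in both), and 150 bases before a start site of each are shown for that reason. The table lists 3 starts for CXCR4 and 4 for PROM1, of which the one farthest upstream is shown, and 1 each for KLF4 and SOX2. The sequences are from RefSeq (GRCh38.p14), read 5′ to 3′ on the gene's own strand, and capitals mark the GC box, GGGCGG or its reverse complement CCGCCC. CXCR4 lies on the minus strand at chr2:136118150-136118299, KLF4 on the minus strand at chr9:107489770-107489919, SOX2 on the plus strand at chr3:181711775-181711924 and PROM1 on the minus strand at chr4:16084024-16084173.
CXCR4: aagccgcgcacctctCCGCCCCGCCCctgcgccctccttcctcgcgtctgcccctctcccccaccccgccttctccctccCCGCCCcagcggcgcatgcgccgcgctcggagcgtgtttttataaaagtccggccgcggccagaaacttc
KLF4: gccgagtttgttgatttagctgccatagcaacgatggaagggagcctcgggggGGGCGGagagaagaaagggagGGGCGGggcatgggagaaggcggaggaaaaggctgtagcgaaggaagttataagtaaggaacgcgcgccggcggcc
SOX2: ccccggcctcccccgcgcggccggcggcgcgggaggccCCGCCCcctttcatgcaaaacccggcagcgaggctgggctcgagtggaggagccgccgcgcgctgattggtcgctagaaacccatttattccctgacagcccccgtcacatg
PROM1: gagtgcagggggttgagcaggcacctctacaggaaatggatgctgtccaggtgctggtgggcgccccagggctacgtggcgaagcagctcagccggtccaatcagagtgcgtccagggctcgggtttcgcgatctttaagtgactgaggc
The CXCR4 window held 3 GC boxes, 2 of which overlap by a base, the KLF4 window held 2, the SOX2 window held 1 and the PROM1 window held none. A GC box was found in 36.8% of the 35116 promoters of the same length. The CCAAT box (CCAAT or ATTGG, on both strands) was found once each in the SOX2 and PROM1 windows and in 23.5% of all promoters. Among the windows at the first listed start of the 8 members in the table, only that of CXCR4 held a TATA match (TATAAA or TTTATA, which overlap here), found in 6.71% of all promoters. The GC content of these windows was 71.3% for CXCR4, 60.7% for KLF4, 71.3% for SOX2 and 62.0% for PROM1, beside a median of 60.0% over all promoters. Each match is a description of letters in the window.

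Library totals ran from 60328748 to 86253923 counts, and the 10 most abundant genes of a library took 4.29% to 4.75% of its counts. SERPINB5, which encodes maspin, was at 212 ± 9.10 CPM in S2-007, 6.56 ± 0.428 in S2-020 and 27.7 ± 2.75 in S2-028 (mean ± SD, n = 3 libraries), where CPM is the count scaled to library size with TMM factors over the 9 libraries. The labelled origin was checked against 6 ductal epithelium genes (KRT7, KRT8, KRT18, KRT19, CDH1 and MUC1), whose summed CPM was 9025 to 9572 in S2-007, 4196 to 5308 in S2-020 and 14780 to 17360 in S2-028. In S2-020 most of this sum was KRT8 (2912 ± 357 CPM) and KRT18 (1682 ± 194). KRT7, KRT8, KRT19, CDH1 and MUC1 were called lower in S2-020 than in S2-007. KRT19 was at 103 ± 12.9 CPM beside 2123 ± 40.7, and CDH1 at 4.55 ± 0.271 beside 54.3 ± 2.43. The sums of fibroblast, endothelium, acinar and islet markers were at most 10.01 CPM in any library. The sum of 5 immune markers was 295 to 370.0 CPM in S2-007 and at most 5.07 elsewhere, and nearly all of it was LYZ (lysozyme, 332 ± 37.8 CPM in S2-007), while the leukocyte gene PTPRC was at 0.301 ± 0.0425 CPM and CD3E had no count in S2-007. Small counts were mostly even: of values from 1 to 20, between 74.6% and 76.1% were even numbers in each library, so the number of independent molecules behind a small count may be lower than the count.

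A gene was called where edgeR's quasi-likelihood test gave a Benjamini-Hochberg adjusted p under 0.05 and the difference was at least 1.5-fold either way, the thresholds of the study. All 10 members passed the filter on low counts in every comparison. SOX2 passed the comparisons with S2-007 only through the line where it was higher. ALDH1A1 likewise passed the comparisons with S2-020 only through S2-020. Their calls there depend on that entry, and a minimum count in every library removed both genes from those comparisons. Between S2-028 and S2-007, 5 members were higher in S2-028 (CD44, PROM1, SOX2, CXCR4 and KLF4), beside 10.2% of all 26371 genes tested, and 1 was lower (CD24), beside 8.19%. Between S2-020 and S2-007, 5 were higher in S2-020 (PROM1, ALDH1A1, SOX2, CXCR4 and KLF4), beside 9.57% of all 26657 genes, and 3 were lower (CD24, EPCAM and ALDH1A3), beside 12.1%. Between S2-028 and S2-020, 5 were higher in S2-028 (CD24, EPCAM, PROM1, ALDH1A3 and SOX2), beside 12.1% of all 26031 genes, and 1 was lower (ALDH1A1), beside 10.1%. The first pair of comparisons shares the S2-007 libraries, so their values stand side by side and are not independent. The median log2 fold change of the members was 0.54, 0.96 and 0.78 in the 3 comparisons in that order, and the median over all genes tested was 0.00, -0.05 and 0.02.

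**Figure D1:**
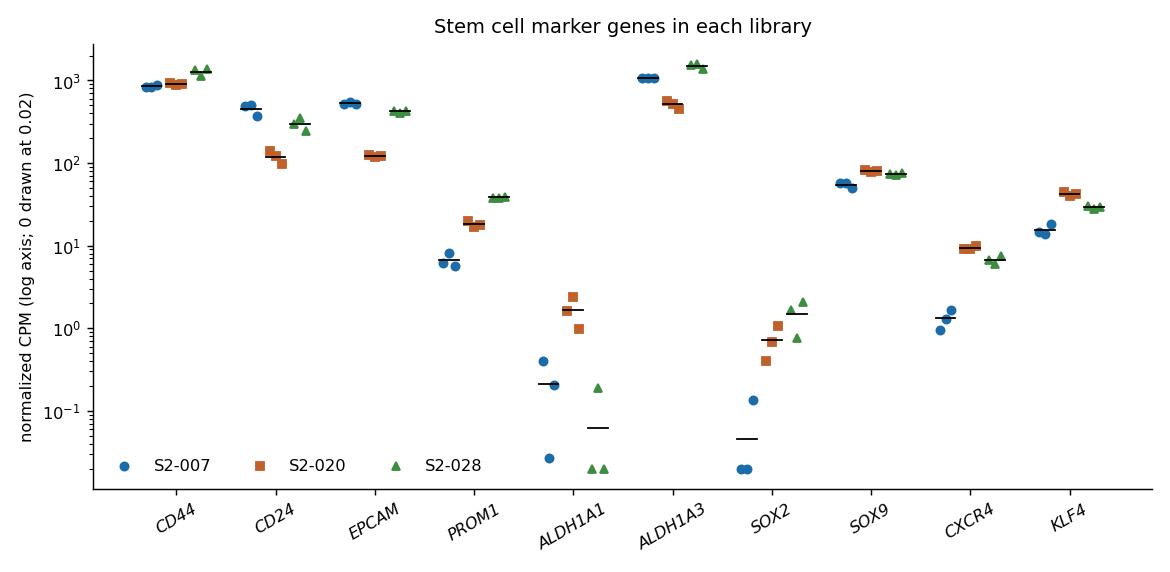
TMM-normalized CPM of the 10 marker genes in each of the 9 libraries, on a log axis, with a point per library, a black bar at the line's mean and a count of 0 drawn at 0.02. S2-020 sits lowest for CD24, EPCAM and ALDH1A3, and S2-007 sits lowest for PROM1, SOX2, SOX9, CXCR4 and KLF4.

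To set the level of one gene beside that of another, CPM was divided by the kilobases of annotated exon. EPCAM (240.5 ± 6.32), ALDH1A3 (202 ± 2.78), CD24 (147 ± 23.7) and CD44 (102 ± 3.36) were the 4 highest members in S2-007 on this scale, and the same 4 genes took the first 4 places in S2-020 and S2-028. Their order changed, with CD44 first in S2-020 (109 ± 2.87) and ALDH1A3 first in S2-028 (281 ± 20.4). ALDH1A1 and SOX2 held the last places in every line, and neither exceeded 0.596 CPM per kilobase on average in any line. The last 2 genes were therefore measured from few reads, and their values carry wide errors.

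CD44 encodes the main surface receptor for hyaluronan. Its CPM was 838, 824 and 878 in S2-007, 938, 892 and 905 in S2-020 and 1338, 1141 and 1366 in S2-028. Every S2-028 library lay above those of the other lines, and S2-020 lay above S2-007 without overlap. The log2 fold change was 0.60 (SE 0.06, adjusted p = 1.18e-07) in S2-028 against S2-007, just inside the fold threshold, and 0.49 (SE 0.06, adjusted p = 5.80e-07) against S2-020, just outside it. Leaving out S2-028 replicate 1 or replicate 3 gave 0.56 in either case for S2-028 against S2-007, which ended the call, and leaving out S2-028 replicate 2 gave 0.59 against S2-020, which made one. Between S2-020 and S2-007 the log2 difference was 0.08 with a 95% interval of -0.02 to 0.17 (adjusted p = 0.1998).

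Genes of hyaluronan metabolism and partners of CD44 were counted beside the share of all genes called. Of 18 tested, 5 were higher (27.8%, beside 10.2%) and 3 lower (16.7%, beside 8.19%) in S2-028 than in S2-007, and 5 were higher (27.8%, beside 9.57%) and 6 lower (33.3%, beside 12.1%) in S2-020 than in S2-007. SPP1, which encodes the CD44 ligand osteopontin, was at 0.844 ± 0.0601 CPM in S2-007, 4.48 ± 0.866 in S2-020 and 32.1 ± 3.29 in S2-028. ESRP1, a splicing factor known to set which CD44 isoforms are made, was at 35.3 ± 4.59 CPM in S2-007, 0.599 ± 0.224 in S2-020 and 151 ± 10.1 in S2-028. On the log2 scale it differed from S2-007 by -5.93 (SE 0.18) in S2-020 and 2.09 (SE 0.09) in S2-028. Gene counts do not show which CD44 isoform was made. CEMIP, which takes part in hyaluronan breakdown, was at 209 ± 19.8 CPM in S2-007, 1.83 ± 0.503 in S2-020 and 33.1 ± 5.503 in S2-028. The hyaluronan synthases went opposite ways in S2-020 against S2-007, with a log2 fold change of -4.37 (SE 0.23) for HAS2 and 1.49 (SE 0.09) for HAS3, and neither was called between S2-028 and S2-007. MMP14, a membrane protease that can cleave CD44, had a log2 fold change of -3.12 (SE 0.08) in S2-028 against S2-007, and MSN, which links CD44 to actin, had one of 0.81 (SE 0.07) in S2-020 against S2-007.

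CD24 encodes a small, heavily glycosylated surface protein. Its CPM was 489, 504 and 370.2 in S2-007, 139.9, 122 and 96.7 in S2-020 and 296, 355 and 243 in S2-028. The lines did not overlap, and replicate 3 was the lowest library in each of them. S2-020 was lower than S2-007 by a log2 fold change of -1.96 (SE 0.11, adjusted p = 2.23e-11), and S2-028 was higher than S2-020 by 1.32 (SE 0.12, adjusted p = 1.44e-08). The difference between S2-028 and S2-007 was smaller, at -0.61 (SE 0.11, adjusted p = 0.000146). It fell short of the fold threshold, so that the call was lost, without S2-028 replicate 3 (-0.48), without S2-007 replicate 1 (-0.54) and without S2-007 replicate 2 (-0.52). Of the 31-base words of the CD24 exons, 9.93% also occur in other annotated genes, so some reads could have been split between copies.

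EPCAM encodes an adhesion protein of epithelial cells. Its CPM was 515, 542 and 525 in S2-007, 124, 119.9 and 121 in S2-020 and 429, 405 and 430.0 in S2-028. There was no overlap between lines, and S2-020 lay lowest. S2-020 was 4.43-fold lower than S2-007 (log2 fold change -2.15, SE 0.05, adjusted p = 1.57e-17) and S2-028 was 3.47-fold higher than S2-020 (1.79, SE 0.05, adjusted p = 5.60e-16). Between S2-028 and S2-007 the log2 fold change was -0.32 (SE 0.06, adjusted p = 8.52e-05), under the fold threshold.

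Of 19 tested genes of proteins that bind or process EPCAM, 3 were higher (15.8%, beside 9.57% of all genes) and 6 lower (31.6%, beside 12.1%) in S2-020 than in S2-007. The 3 higher were PSENEN (log2 fold change 0.92, SE 0.08), APH1B (1.04, SE 0.12) and PSEN2 (0.91, SE 0.11). In S2-028 against S2-007, 6 were higher (31.6%, beside 10.2%) and 2 lower (10.5%, beside 8.19%). In S2-028 against S2-020, 8 were higher (42.1%, beside 12.1%) and 2 lower (10.5%, beside 10.1%, so at the background). ST14, the membrane protease matriptase, was at 471 ± 29.6 CPM in S2-007, 7.26 ± 0.436 in S2-020 and 619 ± 24.7 in S2-028. The tight junction gene CLDN7 was at 29.7 ± 0.496, 1.08 ± 0.469 and 71.4 ± 3.68 CPM in the same order. SPINT1, an inhibitor of matriptase, was at 86.0 ± 6.12, 7.13 ± 0.789 and 141 ± 4.58 CPM. SPINT2, a related inhibitor, did not share this pattern, at 241 ± 6.83 CPM in S2-007, 357, 329.6 and 323 in the S2-020 libraries and 538 ± 8.02 in S2-028. The ductal epithelium sum was also lowest in S2-020. It was higher in S2-028 than in S2-007, whereas EPCAM was lower, but the genes of the sum differed. KRT7, KRT8, KRT18 and CDH1 were called higher in S2-028. KRT19 was not called (log2 fold change -0.13, SE 0.06), and MUC1 was called lower (-0.61, SE 0.16) with overlap of libraries. The part of these genes in the EPCAM differences was not tested.

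**Figure D2:**
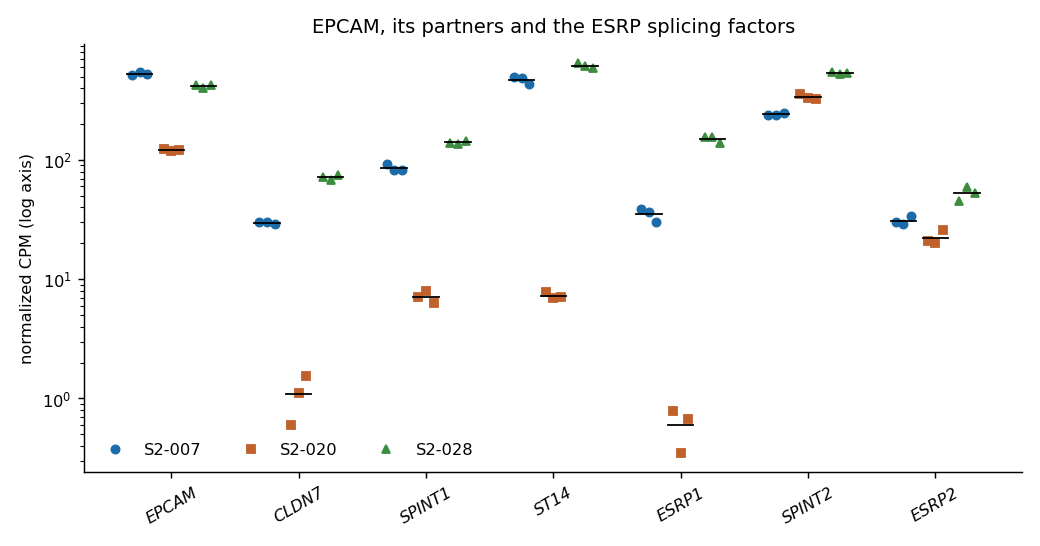
TMM-normalized CPM on a log axis of EPCAM, 4 genes of its partners and inhibitors and the splicing factors ESRP1 and ESRP2, with a point per library and a black bar at each line's mean. For all of these but SPINT2 the S2-020 libraries lie below all others, ST14 at 7.26 CPM on average beside 471 and 619.

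The ratio of CD44 to CD24 counts was 1.71, 1.63 and 2.37 in S2-007. It was 6.71, 7.32 and 9.35 in S2-020 and 4.52, 3.21 and 5.62 in S2-028. The lines did not overlap, and S2-020 had the highest ratio, with a geometric mean of 7.71 beside 4.34 in S2-028 and 1.88 in S2-007. CD44 differed by at most 1.51-fold between line means and CD24 by 3.80-fold. Both genes are markers here, so their ratio is not a measure of stem cell content. The EPCAM to CD24 ratio overlapped between the lines, with geometric means of 1.17, 1.03 and 1.43 in S2-007, then S2-020, then S2-028. These ratios are of gene counts not scaled to length, so they compare lines and not the levels of a pair of genes, and they say nothing of single cells.

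PROM1 encodes the membrane glycoprotein CD133. Its CPM was 6.15, 8.22 and 5.61 in S2-007, 19.9, 16.99 and 17.7 in S2-020 and 38.3, 37.8 and 39.3 in S2-028. The lines did not overlap and took the order S2-007, S2-020, S2-028 from low to high. All 3 steps were called, with log2 fold changes of 2.53 (SE 0.12, adjusted p = 2.77e-13) in S2-028 against S2-007, 1.41 (SE 0.13, adjusted p = 2.04e-08) in S2-020 against S2-007 and 1.08 (SE 0.08, adjusted p = 1.44e-09) in S2-028 against S2-020. A difference as large as that between S2-028 and S2-007 was seen in 2.69% of all genes tested.

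CXCR4 encodes the receptor for the chemokine CXCL12. Its counts were 72, 97 and 124 in S2-007, 650, 763 and 719 in S2-020 and 415, 385 and 453 in S2-028. As CPM these were 1.32 ± 0.361, 9.42 ± 0.531 and 6.72 ± 0.6998. S2-007 lay far below the other lines, with log2 fold changes of 2.81 (SE 0.18, adjusted p = 9.55e-11) in S2-020 and 2.36 (SE 0.21, adjusted p = 6.92e-09) in S2-028 against it. S2-028 was below S2-020 without overlap, at -0.49 (SE 0.13, adjusted p = 0.00420), which did not reach the fold threshold.

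The ligand CXCL12 was too low to be tested, with 31, 13 and 16 counts summed over the 3 libraries of S2-007, S2-020 and S2-028. The other CXCL12 receptor, ACKR3, had sums of 34, 22 and 13 counts, and 32 of the 34 came from S2-007 replicate 3. Of 15 tested genes of the CXCR4 axis, 2 were higher (13.3%, beside 10.2% of all genes) and 5 lower (33.3%, beside 8.19%) in S2-028 than in S2-007, and 1 was higher (6.67%, beside 9.57%) and 5 lower (33.3%, beside 12.1%) in S2-020 than in S2-007. DPP4, a surface peptidase that inactivates CXCL12, was at 142 ± 6.80 CPM in S2-007, 1.67 ± 0.466 in S2-020 and 10.6 ± 1.71 in S2-028. GRK5, a kinase of the family that desensitizes receptors of this kind, was at 54.7 ± 1.37, 14.3 ± 1.02 and 7.42 ± 0.587 CPM. GRK3, of the same family, was at 10.5 ± 1.19, 7.74 ± 0.306 and 21.3 ± 1.86 CPM. GRK6, also of it, was at 106 ± 4.45, 163 ± 3.55 and 87.6 ± 5.65 CPM. GRK3 was called higher in S2-028 than in S2-007, and GRK6 was called higher in S2-020 than in S2-007. CD74, which binds the cytokine MIF and can pair with CXCR4, was at 227 ± 16.3, 0.944 ± 0.118 and 296 ± 3.70 CPM.

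**Figure D3:**
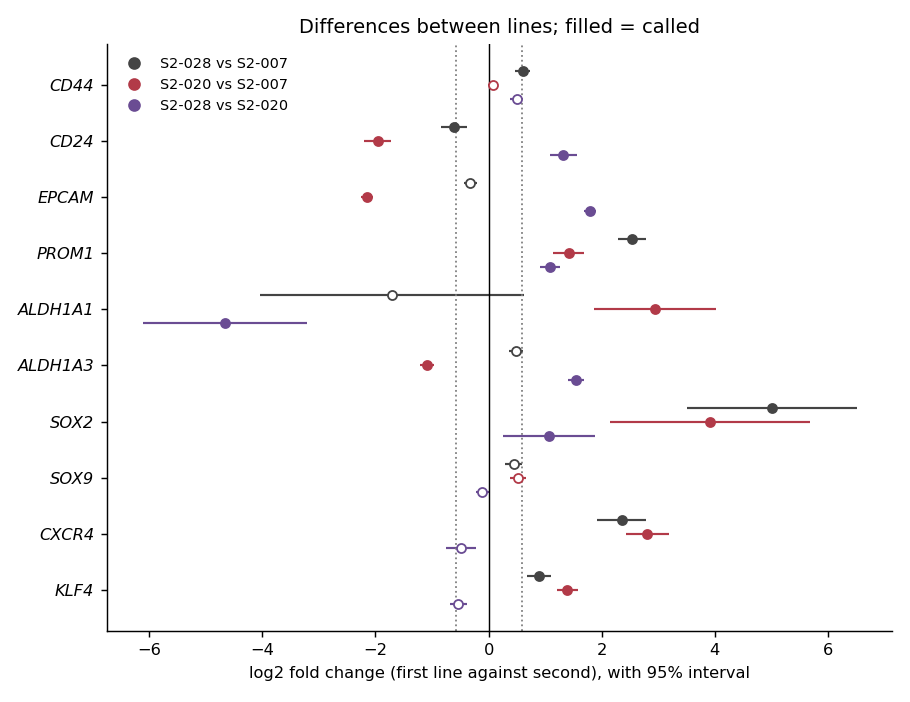
Log2 fold change of each marker gene in the 3 comparisons with its 95% interval, the first-named line against the second. Filled points were called, dotted lines mark the 1.5-fold threshold either way, and SOX2 and ALDH1A1 have the widest intervals.

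The ALDH1A enzymes oxidize retinal to retinoic acid. ALDH1A3 had CPM of 1085, 1077 and 1057 in S2-007, 565, 522 and 456 in S2-020 and 1540.0, 1573 and 1371 in S2-028. The lines did not overlap, and S2-020 lay lowest. S2-020 was below S2-007 by a log2 fold change of -1.09 (SE 0.06, adjusted p = 1.29e-11), S2-028 was above S2-020 by 1.54 (SE 0.07, adjusted p = 3.98e-13), and S2-028 was above S2-007 by 0.48 (SE 0.06, adjusted p = 6.08e-07), under the fold threshold. The antisense gene ALDH1A3-AS1 covers much of this gene, since 32.3% of the ALDH1A3 exon bases lie under a gene on the other strand, and it ran in parallel at 204 ± 10.4, 93.5 ± 13.0 and 264 ± 20.4 CPM. The libraries were strand-specific, but how strand was used in counting is not given in the sources used here, so reads of the pair cannot be told apart.

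ALDH1A1 was barely detected. Its counts were 30, 2 and 15 in S2-007, 116, 200 and 70 in S2-020 and 0, 12 and 0 in S2-028. The S2-020 libraries lay above all others, while S2-007 and S2-028 overlapped. S2-020 exceeded S2-007 by a log2 fold change of 2.94 (SE 0.52, adjusted p = 9.42e-05) and S2-028 was below S2-020 at -4.67 (SE 0.69, adjusted p = 1.40e-05). Between S2-028 and S2-007 the log2 fold change was -1.71 with a 95% interval of -4.04 to 0.62 (adjusted p = 0.284). S2-028 replicate 2 decided this, since without it S2-028 had no ALDH1A1 count and the comparison with S2-007 was called (adjusted p = 0.0154). In that fit ALDH1A1 passed the filter only through S2-007, where it was higher, so the call depends on that entry.

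Per kilobase of exon, ALDH1A3 was at 202 ± 2.78 CPM in S2-007 and ALDH1A1 at 0.0741 ± 0.0659. Of the ALDH1A counts, not scaled to length, ALDH1A3 held means of 99.97%, 99.65% and 99.98% in S2-007, then S2-020, then S2-028, and ALDH1A2 had 22, 40 and 45 counts summed over the libraries of S2-007, S2-020 and S2-028. Of the unscaled counts of all 19 aldehyde dehydrogenase genes, ALDH1A3 took 45.8% ± 0.904 in S2-007, 42.2% ± 3.11 in S2-020 and 72.3% ± 0.943 in S2-028. ALDH2, the mitochondrial enzyme of ethanol metabolism, was at 447 ± 14.02 CPM in S2-007, 66.6 ± 1.64 in S2-020 and 95.1 ± 5.26 in S2-028, and ALDH3A1 at 104 ± 4.94, 17.3 ± 0.600 and 7.70 ± 2.28. ALDH1L2, a mitochondrial enzyme of folate metabolism, was instead highest in S2-020, at 13.0 ± 0.0863, 116 ± 21.2 and 4.19 ± 0.933 CPM. Of the 17 family members besides ALDH1A1 and ALDH1A3, 2 were higher (11.8%, beside 10.2% of all genes) and 5 lower (29.4%, beside 8.19%) in S2-028 than in S2-007, and 2 were higher (11.8%, beside 9.57%) and 4 lower (23.5%, beside 12.1%) in S2-020 than in S2-007.

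Of 18 tested genes that make, carry, sense or break down retinoic acid, 4 were higher (22.2%, beside 10.2% of all genes) and 7 lower (38.9%, beside 8.19%) in S2-028 than in S2-007. Of 17 tested, 2 were higher (11.8%, beside 9.57%) and 8 lower (47.1%, beside 12.1%) in S2-020 than in S2-007. CRABP2, which carries retinoic acid to its receptors, was at 1.16 ± 0.607 CPM in S2-007, 0.592 ± 0.139 in S2-020 and 73.7 ± 9.04 in S2-028, which was above S2-007 by 5.99 (SE 0.19) on the log2 scale. The retinol dehydrogenase DHRS9 went from 28.4 ± 3.62 CPM in S2-007 to 0.0787 ± 0.0880 in S2-020 and 0.107 ± 0.0307 in S2-028. The retinol transporter STRA6 was higher in both lines than in S2-007, by 1.31 (SE 0.10) in S2-028 and 0.94 (SE 0.09) in S2-020 on the log2 scale. CYP26B1, which degrades retinoic acid, was highest in S2-020 at 20.1 ± 1.63 CPM, beside 5.41 ± 1.36 in S2-007 and 2.08 ± 0.214 in S2-028.

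**Figure D4:**
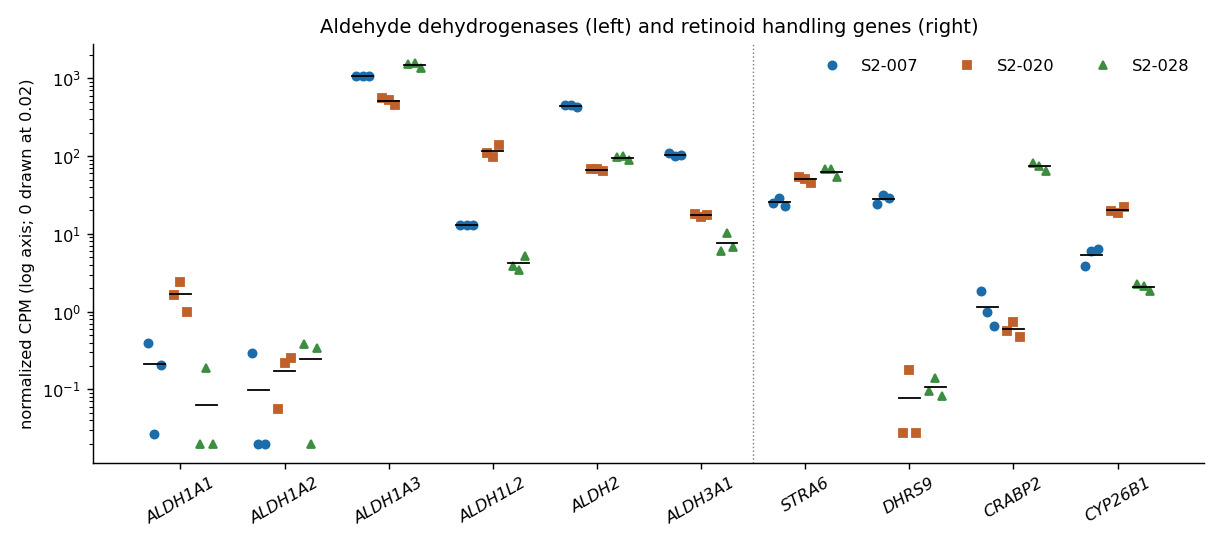
TMM-normalized CPM on a log axis of 6 aldehyde dehydrogenase genes, left of the dotted line, and 4 retinoid handling genes, with a point per library, a black bar at the mean and a count of 0 drawn at 0.02. CPM is not scaled to length, so each gene is read across the lines, where ALDH1A3 is lowest in S2-020 and CRABP2 is high in S2-028 alone at 73.7 CPM on average.

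SOX2, a transcription factor of pluripotent cells, had counts of 0, 0 and 10 in S2-007, 29, 56 and 76 in S2-020 and 102, 49 and 127 in S2-028. S2-007 did not overlap with either other line, and the other lines overlapped with each other. The log2 fold change against S2-007 was 5.01 (SE 0.72, adjusted p = 7.82e-06) in S2-028 and 3.91 (SE 0.84, adjusted p = 0.000775) in S2-020. The size of these values rests on the 10 counts of S2-007 replicate 3, the only S2-007 library with a SOX2 count. DESeq2 did not call the S2-020 difference (adjusted p = 0.0658). S2-028 was above S2-020 at 1.07 (SE 0.39, adjusted p = 0.0324), a call lost without S2-028 replicate 1 (adjusted p = 0.107) or 3 (0.1895) and without S2-020 replicate 1 (0.149) or 2 (0.0846). The host transcript SOX2-OT, in which SOX2 lies, was at 0.992 ± 0.109, 0.553 ± 0.0591 and 0.658 ± 0.0766 CPM in S2-007, then S2-020, then S2-028 and did not share the SOX2 order.

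SOX9, a factor of pancreatic ducts and progenitors, varied least of the transcription factors. Its CPM was 56.8, 58.0 and 49.7 in S2-007, 82.3, 78.9 and 79.7 in S2-020 and 74.3, 72.6 and 76.2 in S2-028. The lines did not overlap and S2-007 lay lowest, by 0.44 (SE 0.07, adjusted p = 3.60e-05) against S2-028 and 0.52 (SE 0.07, adjusted p = 1.78e-06) against S2-020 on the log2 scale, both under the fold threshold. Between S2-028 and S2-020 the log2 difference was -0.11 with a 95% interval of -0.23 to 0.01 (adjusted p = 0.142).

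KLF4, a zinc finger factor of differentiating epithelium that is also used to reprogram cells, had CPM of 14.6, 13.9 and 18.4 in S2-007, 44.3, 39.5 and 42.1 in S2-020 and 29.99, 27.6 and 29.3 in S2-028. The lines did not overlap, and S2-020 was highest. The log2 fold change was 1.39 (SE 0.09, adjusted p = 1.22e-10) in S2-020 and 0.89 (SE 0.10, adjusted p = 3.01e-07) in S2-028 against S2-007, and S2-028 was below S2-020 at -0.53 (SE 0.07, adjusted p = 6.42e-06), under the fold threshold. A gene on the other strand covers 8.39% of the KLF4 exon bases.

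Of 14 other SOX genes tested, 4 were higher (28.6%, beside 10.2% of all genes) and none lower (beside 8.19%) in S2-028 than in S2-007, and 2 were higher and 2 lower (14.3% each way, beside 9.57% and 12.1%) in S2-020 than in S2-007. SOX12 was at 6.53 ± 0.609, 32.7 ± 1.33 and 22.8 ± 2.20 CPM in S2-007, then S2-020, then S2-028, and SOX7, an endoderm factor, at 13.2 ± 2.22, 53.2 ± 0.971 and 24.6 ± 4.36. SOX4 was called only in the comparisons with S2-028, at a log2 fold change of 0.93 (SE 0.08) against S2-007 and 0.59 (SE 0.07) against S2-020. Of 16 other KLF genes tested, 2 were higher (12.5%, near the background of 10.2%) and 3 lower (18.8%, beside 8.19%) in S2-028 than in S2-007, and of 15 tested, 4 were higher (26.7%, beside 9.57%) and 5 lower (33.3%, beside 12.1%) in S2-020 than in S2-007. KLF5, a factor of proliferating epithelium, was highest in S2-007, at 569.5 ± 20.9, 299.98 ± 12.5 and 217 ± 10.5 CPM. KLF2 followed KLF4 in being lowest in S2-007, at 4.603 ± 1.06, 15.8 ± 4.42 and 23.3 ± 2.41 CPM, as did KLF11, at 1.27 ± 0.206, 6.94 ± 1.19 and 5.72 ± 1.32.

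Of 12 other pluripotency factors tested, 1 was higher and 1 lower in each comparison with S2-007 (8.33% each way, near the background of all genes), namely DNMT3B, higher by 0.97 (SE 0.13) in S2-028 and 0.74 (SE 0.12) in S2-020, and LIN28B, with -3.90 (SE 0.24) and -1.02 (SE 0.20), all on the log2 scale. POU5F1 was called in no comparison and was at 5.39 ± 0.944, 7.24 ± 0.896 and 5.35 ± 0.697 CPM in S2-007, then S2-020, then S2-028. Of 25 further stem cell markers tested, 4 were higher (16.0%, beside 10.2% of all genes) and 6 lower (24.0%, beside 8.19%) in S2-028 than in S2-007, and 5 were higher (20.0%, beside 9.57%) and 8 lower (32.0%, beside 12.1%) in S2-020 than in S2-007. LGR5, a receptor marking intestinal stem cells, was at 33.8 ± 3.32, 6.50 ± 1.46 and 3.47 ± 0.353 CPM. DCLK1, a kinase of tuft cells, was at 5.78 ± 1.01, 77.7 ± 16.4 and 8.04 ± 0.846 CPM, and the receptor MET at 1023 ± 41.5, 369.6 ± 5.56 and 735 ± 49.2.

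The chromosomal surroundings of each member were described by the 50 nearest tested genes. The medians of these neighbors lay between -0.35 and 0.34 on the log2 scale over all members and comparisons. The highest was beside SOX2 in S2-028 against S2-007 (0.34, beside 5.01 for SOX2) and the lowest beside ALDH1A3 in S2-020 against S2-007 (-0.35, beside -1.09 for ALDH1A3). Copy number was not measured.

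**Figure D5:**
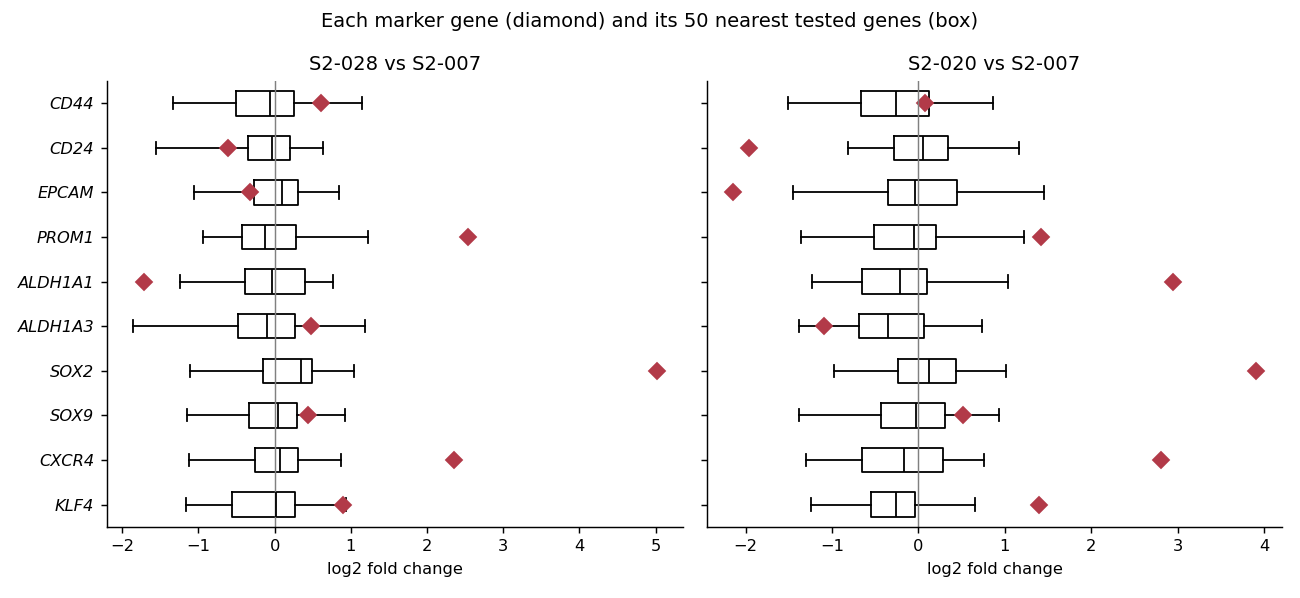
Log2 fold change of each marker gene (diamond) and of its 50 nearest tested genes (box with median and quartiles, whiskers covering the central 90%) in S2-028 and in S2-020 against S2-007. The diamonds of PROM1, ALDH1A1, SOX2 and CXCR4 lie beyond the whiskers in both panels, while the neighbor medians stay between -0.35 and 0.34.

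For the 4 members with the widest range, the genes of most similar pattern were found by Pearson's r of log2 CPM over the 9 libraries among 10525 expressed genes. These libraries form 3 lines, so for CXCR4 and PROM1 r mainly compares the order of the line means. SOX2 and ALDH1A1 had counts of 0 in some libraries, so for them the spread within a line also enters r. Nearest to CXCR4 were METTL1 (r = 0.998), RAI14 (0.998) and AGAP2-AS1 (0.997), nearest to PROM1 were LOC105370763 (0.994), EFNA5 (0.993) and KHK (0.992), nearest to SOX2 were RICTOR (0.987), IRAK1 (0.985) and SLC10A3 (0.983), and nearest to ALDH1A1 were LCORL (0.970), PMF1 (0.9498) and USP30 (0.948). An r over 0.9 with CXCR4 was shared by 951 genes. METTL1 was at 28.9, 89.9 and 70.3 CPM on average in S2-007, then S2-020, then S2-028. As METTL1 was chosen by r, its sharing the order of CXCR4 is no further result.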

How the data were processed

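RNA was sequenced from 9 libraries, 3 each of S2-007, S2-020 and S2-028. Per the labels and the study's methods, poly(A)-selected, strand-specific libraries were trimmed with Trimmomatic 0.39, aligned to GRCh38.p14 with BWA 0.7.17 and handled with SAMtools 1.12, and the submitters' processing notes also name edgeR 3.16.5. The authors deposited whole-number read counts per gene, and the 9 columns of these counts were used, while 18 columns of scaled counts were not. How reads were counted (tool, strand, reads with several hits) is not given in the sources used here. BWA is not a spliced aligner, so reads across exon junctions may be lost or clipped, which would bear on genes with short exons. There were 2 lines that name no gene and they were left out.

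Each pair of lines was compared in edgeR 4.0.16 (R 4.3.3) after filterByExpr (minimum count 10, total 15) and TMM scaling, with the quasi-likelihood test and Benjamini-Hochberg adjustment over all genes tested; the study's text names a likelihood ratio test, tried as an alternative. The call thresholds were an adjusted p of 0.05 and a 1.5-fold difference. The SE of a log2 fold change was its size over the square root of the F statistic, with 95% intervals from the same test's degrees of freedom. CPM used TMM factors over the 9 libraries. Same-line libraries differed by more than counting noise (chi-square per gene 8.41 to 23.7), so none was a repeat deposit. All 10 members were named in every comparison. Other genes named were at most 2 per list, direction and comparison, by smallest adjusted p, plus a fixed set of partner genes (among them ESRP1, CLDN7, KLF5, POU5F1, LGR5 and MET), and for similarity the 3 genes of highest r. LYZ, PTPRC, SERPINB5 and ALDH1A3-AS1 were named, and the ductal epithelium genes given singly, after their values were seen. The members and lists were chosen with earlier results of these data known. The scripts were tested on simulated data. Alternatives were RLE scaling, DESeq2 1.42.0, the likelihood ratio test, a null hypothesis of the fold threshold, other filters, all 9 libraries in one fit, a replicate block, leaving out each library and, chosen after seeing the data, halved counts. Positions of all 10 members were from RefSeq, as were the promoters of 8 of them (EPCAM and SOX9 had none). Exon lengths and overlaps were from GENCODE. Figures were drawn with matplotlib 3.10.9 in Python 3.11.15. Some genes that this rule names are not reported here.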

Additional observations from a re-analysis of the deposited data

How the results depend on the processing

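No member changed direction under any alternative. RLE scaling, the likelihood ratio test, no filter and the replicate block left all 30 member calls as they were, as did halved counts for the 29 that could be tested. With the replicate block, 2692 genes were higher and 2173 lower in S2-028 than in S2-007. Same-numbered libraries did not deviate together (r from -0.033 to 0.067), so the numbers were not taken as pairs, and the block changed no member call. Testing against the fold threshold itself lowered the counts over all genes to 1674 higher and 1303 lower in S2-028 against S2-007, to 1628 and 2011 in S2-020 against S2-007 and to 2005 and 1633 in S2-028 against S2-020. It also left 0 members lower in S2-028 than in S2-007, since CD24 was lost, as were CD44 there and SOX2 in S2-028 against S2-020 (adjusted p = 0.796 and 0.227). A minimum count in every library removed ALDH1A1 from all 3 comparisons and SOX2 from the 2 with S2-007, which left 3 members higher in S2-020 than in S2-007 and 0 lower in S2-028 than in S2-020. Leaving out single libraries moved the members lower in S2-028 than in S2-007 between 0 and 2, by CD24 and ALDH1A1. ALDH1A1 was called there only where S2-028 had no count of it left. In a fit of all 9 libraries SOX2 was not called between S2-028 and S2-020 (adjusted p = 0.128). ALDH1A1 and SOX2 have at most 200 counts in any library, and CXCR4 has 72 to 124 in S2-007, which limits the precision of their values.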
